A study of Homo sapiens with 6 samples.

Results

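Respiratory complexes II to V carry electrons from succinate and ubiquinol to oxygen in the inner mitochondrial membrane and use the resulting proton gradient to make ATP. Their nuclear-encoded genes were selected by symbol: rows beginning with SDHA, SDHB, SDHC, SDHD, UQCR, ATP5, or COX followed by a digit of the structural subunits, plus CYC1 and CYCS. The rule took 57 of 17939 genes, and 47 of them had a mean level high enough to be tested among 11533 genes. RNA came from LY2 cells, an estrogen receptor-positive, endocrine-resistant breast cancer line. In the knockdown group (siCDK12) a pool of small interfering RNAs against the transcriptional kinase CDK12 was given at 30 nmol/L, and the control group (siCtrl) received a non-targeting pool at the same dose. Both groups were harvested 48 hours after transfection, with 3 libraries each, described by the study as biological replicates. All libraries came from this single cell line, and the cells had been deprived of serum before transfection. The study otherwise kept the line in medium with hydroxytamoxifen, and this drug was also left out before transfection.

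Complex II is succinate dehydrogenase, which also serves the citric acid cycle. Complex III passes electrons from ubiquinol to cytochrome c, complex IV hands them to oxygen, and complex V is the rotary ATP synthase. Complexes III, IV and V also hold subunits made from mitochondrial DNA, and the RNAs of those subunits were not analysed here.

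Levels are in FPKM, fragments per kilobase of transcript scaled to the mapped fragments of the library, and can be compared between genes because they are set per length. A fold change is the mean of log2(FPKM + 0.1) in siCDK12 libraries minus that in siCtrl libraries. The adjusted p is from limma with Benjamini-Hochberg correction over all genes tested, and calls are those with an adjusted p under 0.05. FPKM is relative to the whole library, so that neither a change in RNA per cell shared by all genes nor a change in cell number would be seen. CDK12 had 2.23, 2.83 and 2.44 FPKM in siCDK12 libraries, against 11.17, 10.7 and 10.3 FPKM in siCtrl libraries (log2 fold change -2.06, SE 0.0852, adjusted p = 3.17e-07). All 8 luminal epithelial markers were present at 39.37 FPKM or more, and their sum lay between 5256.52 and 5373.4 FPKM in siCDK12 libraries and between 4830.25 and 4867.96 FPKM in siCtrl libraries. The markers did not move together. CDH1, GATA3, KRT8 and KRT18 were called higher, ESR1 was called lower (log2 fold change -0.33, adjusted p = 0.000187), and FOXA1, KRT19 and EPCAM were not called. Markers of other cell types summed to between 11.48 and 11.98 FPKM in siCDK12 libraries and between 8.46 and 9.19 FPKM in siCtrl libraries. CD3E and CDH5 were listed at 0 in every library and nearly all of that sum came from COL1A1, a fibrillar collagen. The part of these differences in the results was not tested.

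Relative to all RNA of a library, CDK12 knockdown left most RNAs of complexes II to V close to their control level. There were small rises in SDHA of complex II, UQCRC2 of complex III and selected subunits of complexes IV and V, and small falls in SDHC and ATP5F1A. Of the 47 members tested, 8 were higher, 2 were lower and 37 were not called. Thus 21.3% of members were called, while 28.3% of all genes tested were called, 16.1% higher and 12.3% lower, so that the share among the members was not above the background. The median log2 fold change over members was 0.04, against 0.03 over all genes, and member values lay between -0.14 and 0.33. Of the 37 members that were not called, no 95% interval reached beyond -0.25 or 0.244 on the log2 scale. The split between higher and lower calls depended on the scaling. With median-ratio scaling of the libraries, 2 members were higher, ATP5MC1 and ATP5MF, and 2 were lower, SDHC and ATP5F1A, where 11.9% of all genes were called higher and 14.6% lower. The siCDK12 and siCtrl libraries did not overlap in 12 members (25.5%), against 43.1% of all genes tested.

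**Figure D1:**
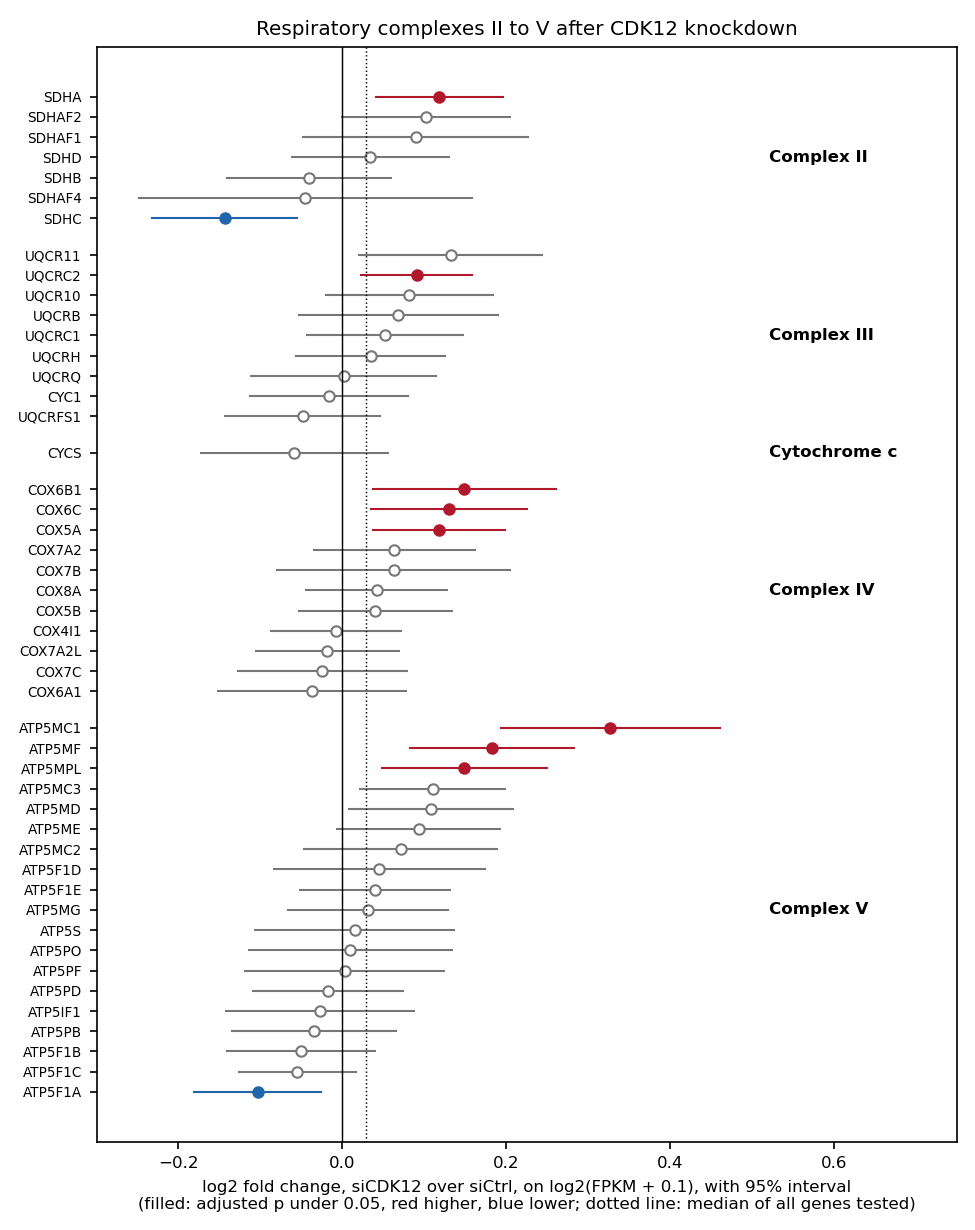
Each point is the log2 fold change of 1 tested member, siCDK12 over siCtrl, on log2(FPKM + 0.1) with its 95% interval, grouped by complex. Most points lie near 0, and ATP5MC1 at 0.33 stands to the right of the other members.

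These are abundant RNAs. The median member had a mean of 130.27 FPKM, against 12.91 FPKM over all genes tested. Summed by complex, the tested genes of complex II gave 271.76 ± 7.84 FPKM in siCDK12 libraries and 267.84 ± 7.3 FPKM in siCtrl libraries (SD, n = 3 each). Complex III gave 945.86 ± 18.17 FPKM in siCDK12 libraries and 925.53 ± 34.23 FPKM in siCtrl libraries. Both sums overlapped between groups. Complex IV gave 3235.5 ± 101.98 FPKM in siCDK12 libraries and 3178.71 ± 163.7 FPKM in siCtrl libraries. Complex V gave 3946.48 ± 66.52 FPKM in siCDK12 libraries and 3796.67 ± 207.5 FPKM in siCtrl libraries. The sum of complex V was 3954.79, 3876.19 and 4008.45 FPKM in siCDK12 libraries, against 3671.74, 3682.07 and 4036.19 FPKM in siCtrl libraries. The siCtrl replicate 3 thus had the highest sum of all libraries, whereas siCtrl replicates 1 and 2 lay below every siCDK12 library. The sums were not tested.

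The control libraries differed among themselves in these genes. The median deviation of the members from their 6-library mean was 0.03, -0.01 and 0.05 on the log2 scale in siCDK12 replicates 1, 2 and 3. In siCtrl replicates 1, 2 and 3 it was -0.06, -0.04 and 0.04. The siCtrl replicate 3 thus stood with the siCDK12 libraries, and it was the highest of its group in 38 of 47 members, against 34.2% of all genes tested. Without it, 12 members were called higher and 0 lower by limma (19 and 2 at an unadjusted p under 0.05), where 13.9% of all genes were called higher and 10.4% lower. Of those 12, 6 were among the members called with all libraries. The other 6, which were not called with all libraries, were UQCR10, UQCR11, COX7A2, COX7B, ATP5MD and ATP5MC3. Without siCDK12 replicates 1, 2 and 3 in turn, 3, 4 and 2 members were called higher, where 11.7%, 11.9% and 10.5% of all genes were. Without siCtrl replicates 1 and 2 in turn, 3 and 1 members were called higher, where 12.4% and 11.9% of all genes were.

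**Figure D2:**
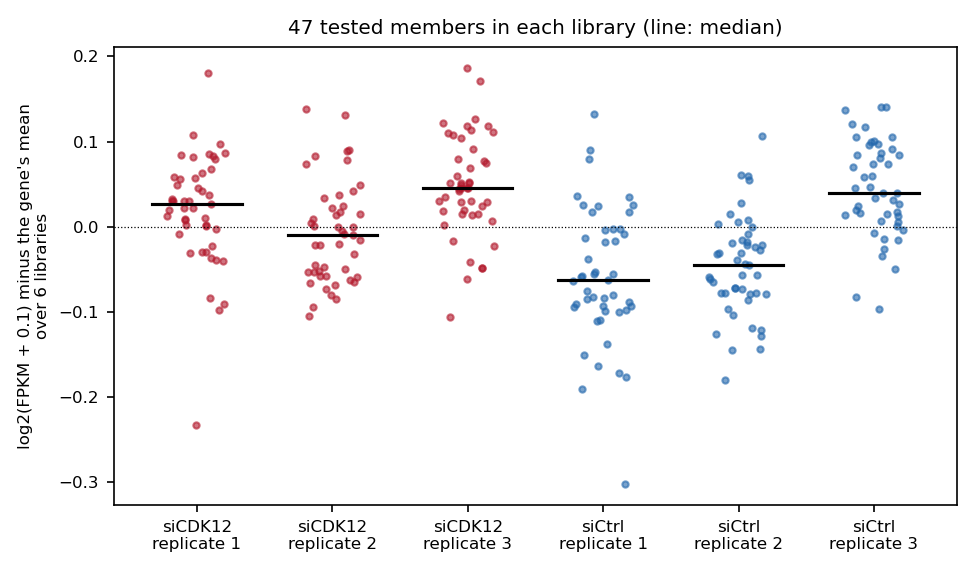
Each point is the log2(FPKM + 0.1) of 1 of the 47 tested members minus its mean over the 6 libraries, and the lines are library medians. The median of siCtrl replicate 3 (0.04) lies close to those of siCDK12 replicates 1 and 3 (0.03 and 0.05).

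The largest change among the members was in the RNA of ATP5MC1, a gene for the membrane ring of ATP synthase. Subunit c, the protein that forms this proton-driven ring, is made from 3 genes, ATP5MC1, ATP5MC2 and ATP5MC3, whose precursors carry different import signals but give the same mature protein. Their mature coding stretches of 225 bases (75 codons) are shown because only ATP5MC1 of the 3 genes was called, while their translations were identical. The stretches are from GENCODE canonical transcripts on GRCh38, each joined across introns, within chr17:48895222-48895766 on the plus strand for ATP5MC1, chr12:53665317-53669260 on the minus strand for ATP5MC2 and chr2:175178291-175179169 on the minus strand for ATP5MC3. Capitals mark bases that differ from ATP5MC2.
ATP5MC1: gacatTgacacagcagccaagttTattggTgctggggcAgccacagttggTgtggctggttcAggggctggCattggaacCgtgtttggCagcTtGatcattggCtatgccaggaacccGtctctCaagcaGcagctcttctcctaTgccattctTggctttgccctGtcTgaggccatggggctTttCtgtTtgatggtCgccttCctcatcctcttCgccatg
ATP5MC2: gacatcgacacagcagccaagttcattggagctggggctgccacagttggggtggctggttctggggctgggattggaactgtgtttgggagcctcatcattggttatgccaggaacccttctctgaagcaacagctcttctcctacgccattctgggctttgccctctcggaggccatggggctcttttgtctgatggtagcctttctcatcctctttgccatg
ATP5MC3: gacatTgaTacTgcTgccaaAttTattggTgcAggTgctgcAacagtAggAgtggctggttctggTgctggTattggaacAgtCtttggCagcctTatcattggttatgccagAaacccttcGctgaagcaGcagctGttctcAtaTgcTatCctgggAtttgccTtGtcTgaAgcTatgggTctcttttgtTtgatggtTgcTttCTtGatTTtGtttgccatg
ATP5MC1 differed from ATP5MC2 at 25 bases (88.9% identity), and ATP5MC3 differed from each of the others at 42 bases (81.3% identity). The longest run shared between any pair of whole transcripts was 17 bases, shorter than a sequencing read.

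ATP5MC1 lies at chr17:48892787-48895871. It had 83.20, 80.83 and 82.72 FPKM in siCDK12 libraries, against 59.53, 64.79 and 73.04 FPKM in siCtrl libraries. Every siCDK12 library was above every siCtrl library, and the siCtrl libraries were the more widely spread. The log2 fold change was 0.33 (SE 0.0608, 95% interval 0.19 to 0.46, adjusted p = 0.00272). ATP5MC1 was called under all 16 alternatives, with adjusted p between 0.000162 and 0.021, and a two-sided exact permutation test of its 6 values gave p = 0.1, the smallest that 3 against 3 libraries can give. ATP5MC2, the most abundant of the genes, had 489.91, 444.77 and 485.99 FPKM in siCDK12 libraries, against 435.35, 429.50 and 488.25 FPKM in siCtrl libraries. Its groups overlapped and it was not called (log2 fold change 0.07, adjusted p = 0.347). ATP5MC3 had 63.58, 64.11 and 67.61 FPKM in siCDK12 libraries, against 58.72, 59.33 and 62.88 FPKM in siCtrl libraries. Its groups did not overlap, by a narrow gap, and it was not called (log2 fold change 0.11, adjusted p = 0.0632).

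ATP5MC1 therefore made up a larger share of subunit c RNA. It took 13.1%, 13.7% and 13.0% of the summed FPKM of the 3 genes in siCDK12 libraries, against 10.8%, 11.7% and 11.7% in siCtrl libraries. The share of ATP5MC2 averaged 76.2% in siCDK12 libraries and 78.1% in siCtrl libraries, and that of ATP5MC3 averaged 10.5% in each. The share of ATP5MC1 did not overlap between groups (two-sided exact permutation p = 0.1, the smallest possible). That of ATP5MC3 overlapped (exact permutation p = 0.9). The summed FPKM of the 3 genes was 636.69, 589.71 and 636.32 in siCDK12 libraries and 553.6, 553.62 and 624.17 in siCtrl libraries, with overlap (exact permutation p = 0.2).

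**Figure D3:**
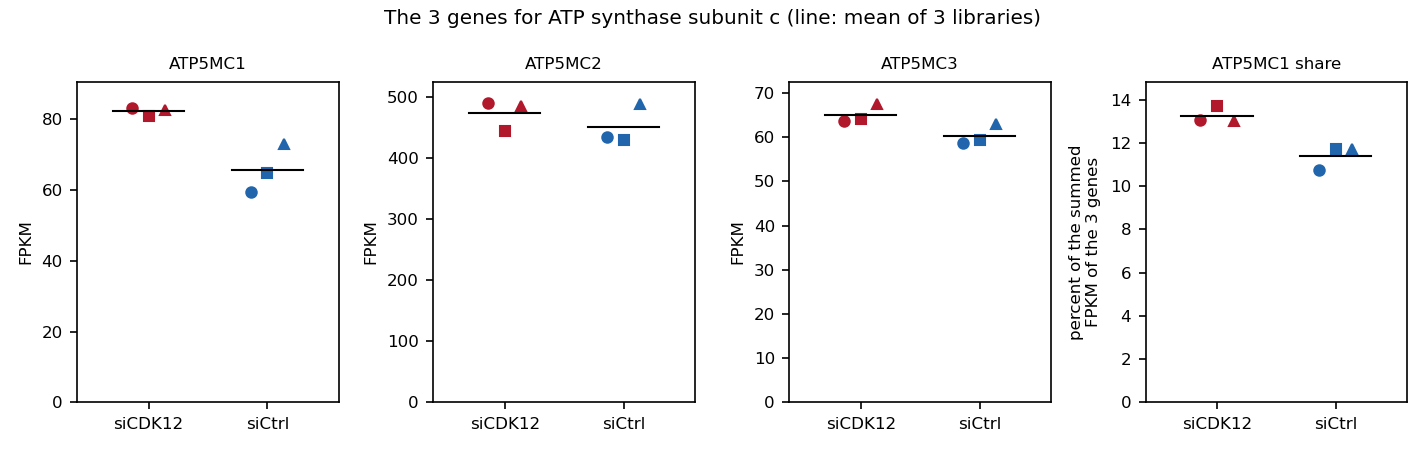
FPKM of the 3 genes for ATP synthase subunit c and the share of ATP5MC1 in their sum, in percent, by library, with group means as lines. ATP5MC1 lies between 80.83 and 83.20 FPKM in siCDK12 libraries, above all siCtrl libraries, while ATP5MC2 overlaps.

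Among the small subunits that sit beside the ring in the membrane, all 5 tested, ATP5MF, ATP5ME, ATP5MG, ATP5MPL and ATP5MD, had positive log2 fold changes with a median of 0.11 (that of ATP5MG turned negative without siCtrl replicate 2), and 2 were called higher. Log2 fold changes were positive in 31 of all 47 members and in 6745 of all 11533 genes tested, of which 16.1% were called higher. ATP5MF, subunit f and the most abundant member of complex V, lies at chr7:99458195-99466167 on GRCh38. It had 798.07, 792.89 and 817.97 FPKM in siCDK12 libraries, against 672.62, 690.53 and 762.07 FPKM in siCtrl libraries. The groups did not overlap (log2 fold change 0.18, SE 0.0456, adjusted p = 0.0132), and the gap was smallest to siCtrl replicate 3. The call was lost without siCDK12 replicate 3 (adjusted p = 0.0551) and without siCtrl replicate 2 (0.0501), within a range of 0.000779 to 0.0551 over all alternatives. It was also lost without a filter (0.0513) and without a variance trend (0.0528). A read-through transcript, ATP5MF-PTCD1, shares sequence with this gene and had at most 1.97 FPKM.

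ATP5MPL, a proteolipid of the synthase now named ATP5MJ, had 219.50, 227.24 and 231.33 FPKM in siCDK12 libraries, against 198.78, 194.14 and 219.34 FPKM in siCtrl libraries. The lowest siCDK12 library and siCtrl replicate 3 were almost level (log2 fold change 0.15, SE 0.0459, adjusted p = 0.0332). The call was lost without siCDK12 replicate 2 or 3 or siCtrl replicate 1 or 2 (adjusted p between 0.0852 and 0.122, with 0.00309 the lowest over all alternatives). ATP5ME, ATP5MG and ATP5MD, subunits e, g and the dimer-associated subunit now named ATP5MK, were not called at log2 fold changes of 0.09, 0.03 and 0.11.

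The catalytic head went the other way in ATP5F1A. This gene, at chr18:46080248-46104227, encodes the alpha subunit. It had 187.57, 183.05 and 183.42 FPKM in siCDK12 libraries, against 202.27, 190.23 and 202.95 FPKM in siCtrl libraries, without overlap (log2 fold change -0.10, SE 0.0354, adjusted p = 0.0493). The value lay just inside the threshold, and the call was lost without any of the libraries other than siCtrl replicate 2 (adjusted p between 0.0719 and 0.137, and 0.0226 at the lowest over all alternatives). ATP5F1B, the catalytic beta subunit, had 499.51, 476.75 and 476.63 FPKM in siCDK12 libraries, against 489.73, 485.47 and 530.30 FPKM in siCtrl libraries, with overlap (log2 fold change -0.05, adjusted p = 0.386). In the central stalk that turns inside the head, ATP5F1C, ATP5F1D and ATP5F1E were not called at -0.05, 0.05 and 0.04, although the groups of ATP5F1C did not overlap. Head and central stalk together had 0 of 5 members higher and 1 lower by limma (0 and 1 also at an unadjusted p under 0.05). Of all genes tested, 16.1% were called higher and 12.3% lower, so that 1 call among 5 members does not set this part apart.

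The remaining parts of complex V showed less. The peripheral stalk, which holds the head still, is built from ATP5PB, ATP5PD, ATP5PF and ATP5PO, and 0 of 4 were called by limma, with 0 at an unadjusted p under 0.05. ATP5IF1, the inhibitor that binds the synthase when the proton gradient collapses, had 113.52, 116.22 and 128.13 FPKM in siCDK12 libraries, against 120.00, 115.63 and 128.94 FPKM in siCtrl libraries (log2 fold change -0.03, adjusted p = 0.733). ATP5S, the coupling factor B gene now named DMAC2L, was not called at 0.01. ATP5MGL was at 0 except for 0.08 FPKM in siCtrl replicate 3. Over the complex, 3 of 19 tested genes were higher and 1 was lower (21.1% called, against 28.3% of all genes tested), with a median of 0.03.

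Complex II held a change in each direction. SDHA, the flavoprotein that oxidizes succinate, lies at chr5:218320-268746. It had 66.85, 64.92 and 65.35 FPKM in siCDK12 libraries, against 59.55, 59.70 and 62.36 FPKM in siCtrl libraries, without overlap (log2 fold change 0.12, SE 0.0351, adjusted p = 0.0287). SDHC, at chr1:161314381-161363206, encodes a membrane anchor that helps to bind ubiquinone. It had 33.83, 32.65 and 32.06 FPKM in siCDK12 libraries, against 35.37, 35.98 and 37.55 FPKM in siCtrl libraries, again without overlap (log2 fold change -0.14, SE 0.0401, adjusted p = 0.0221). SDHC was the larger of the 2 falls among the members. The call of SDHA was lost without any library other than siCtrl replicate 3 (adjusted p between 0.0544 and 0.0892, and 0.0191 at the lowest over all alternatives). That of SDHC was lost without siCDK12 replicate 2 or 3 or siCtrl replicate 3 (0.0623 to 0.084, and 0.0115 at the lowest).

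The other catalytic and anchor subunits of complex II overlapped between groups. SDHB, the iron-sulfur subunit and the most abundant gene of the complex, had 71.52, 65.13 and 70.77 FPKM in siCDK12 libraries, against 69.92, 68.92 and 74.43 FPKM in siCtrl libraries (log2 fold change -0.04, adjusted p = 0.541). SDHD, the second anchor, was not called at 0.03 (adjusted p = 0.592). The rule also took the assembly factors named after these subunits. SDHAF2, which helps to attach the flavin to SDHA, was not called at 0.10, nor were SDHAF1 and SDHAF4 at 0.09 and -0.05. SDHAF3 was listed at 0 in every library. Of 7 tested genes of the complex, 1 was higher and 1 lower (28.6% called, against 28.3% of all genes tested), with a median of 0.03.

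In complex III only UQCRC2 was called. This core protein, at chr16:21953361-21983660, had 116.28, 115.61 and 116.80 FPKM in siCDK12 libraries, against 108.12, 109.31 and 110.02 FPKM in siCtrl libraries. The libraries were tight within each group and did not overlap, and the change was small (log2 fold change 0.09, SE 0.0306, adjusted p = 0.047). The call was lost on leaving out any of the 6 libraries (adjusted p between 0.0664 and 0.133, within 0.0371 to 0.143 over all alternatives). UQCRC1, its partner core protein, had 90.67, 82.56 and 88.76 FPKM in siCDK12 libraries, against 87.18, 81.20 and 84.13 FPKM in siCtrl libraries, with overlap (log2 fold change 0.05, adjusted p = 0.395).

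The subunits of complex III that carry the electrons did not pass the test. CYC1, the heme protein that reduces cytochrome c and the most abundant gene of the complex, had 195.07, 184.34 and 183.12 FPKM in siCDK12 libraries, against 181.38, 186.41 and 201.50 FPKM in siCtrl libraries (log2 fold change -0.02, adjusted p = 0.814). UQCRFS1, the Rieske iron-sulfur protein, had 127.44, 123.74 and 132.97 FPKM in siCDK12 libraries, against 131.78, 126.18 and 139.51 FPKM in siCtrl libraries (log2 fold change -0.05, adjusted p = 0.432). Both genes overlapped between groups. UQCR11, a small accessory subunit, did not overlap, at 42.67, 42.97 and 42.17 FPKM in siCDK12 libraries, against 35.99, 38.99 and 41.84 FPKM in siCtrl libraries, and was not called (log2 fold change 0.13, adjusted p = 0.0744). The hinge protein UQCRH and the accessory subunits UQCR10, UQCRQ and UQCRB were not called at 0.03, 0.08, 0.00 and 0.07. UQCRHL, a copy of UQCRH whose coding sequence differs at 4 of 276 bases, had at most 0.58 FPKM, and fragments of these near-identical genes may have been divided between them in error. CYCS, the mobile carrier cytochrome c, which also triggers the apoptosome when released, had 26.53, 28.29 and 28.68 FPKM in siCDK12 libraries, against 31.13, 27.79 and 28.11 FPKM in siCtrl libraries. Its groups overlapped (log2 fold change -0.06, adjusted p = 0.431). Complex III had 1 of 9 tested genes higher and 0 lower by limma (2 and 0 at an unadjusted p under 0.05), with a median of 0.05. Its called share was 11.1%, against 28.3% of all genes tested.

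Complex IV had 3 of 11 tested genes higher and 0 lower by limma (also 3 and 0 at an unadjusted p under 0.05), with a median of 0.04. The called share was 27.3%, close to the 28.3% of all genes tested. COX5A, a matrix-side subunit at chr15:74919791-74938073, had 116.79, 119.02 and 113.68 FPKM in siCDK12 libraries, against 104.74, 105.85 and 111.52 FPKM in siCtrl libraries, without overlap (log2 fold change 0.12, SE 0.0364, adjusted p = 0.0337). COX6C, a single-span membrane subunit, had 146.20, 135.22 and 147.79 FPKM in siCDK12 libraries, against 135.01, 124.97 and 132.01 FPKM in siCtrl libraries. Here siCDK12 replicate 2 and siCtrl replicate 1 were almost level (log2 fold change 0.13, SE 0.0434, adjusted p = 0.0447). COX6B1, at chr19:35648323-35658782, encodes a subunit on the face where cytochrome c docks. It had 314.10, 298.86 and 321.69 FPKM in siCDK12 libraries, against 266.36, 272.43 and 305.27 FPKM in siCtrl libraries. Of the 10 called members, COX6B1 was the only one whose groups overlapped, since siCtrl replicate 3 lay above siCDK12 replicate 2 (log2 fold change 0.15, SE 0.0507, adjusted p = 0.0485, two-sided exact permutation p = 0.2).

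Each of these calls depended on single libraries. That of COX5A was lost without siCDK12 replicate 1 or 2 or siCtrl replicate 1 or 2 (adjusted p between 0.0805 and 0.111, and 0.0169 at the lowest over all alternatives). That of COX6C was lost without siCDK12 replicate 1 or 3 or siCtrl replicate 2 or 3 (0.0622 to 0.158, and 0.0202 at the lowest). That of COX6B1 was lost without siCDK12 replicate 1 or 3 or siCtrl replicate 1 or 2 (0.116 to 0.159, and 0.00368 at the lowest).

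**Figure D4:**
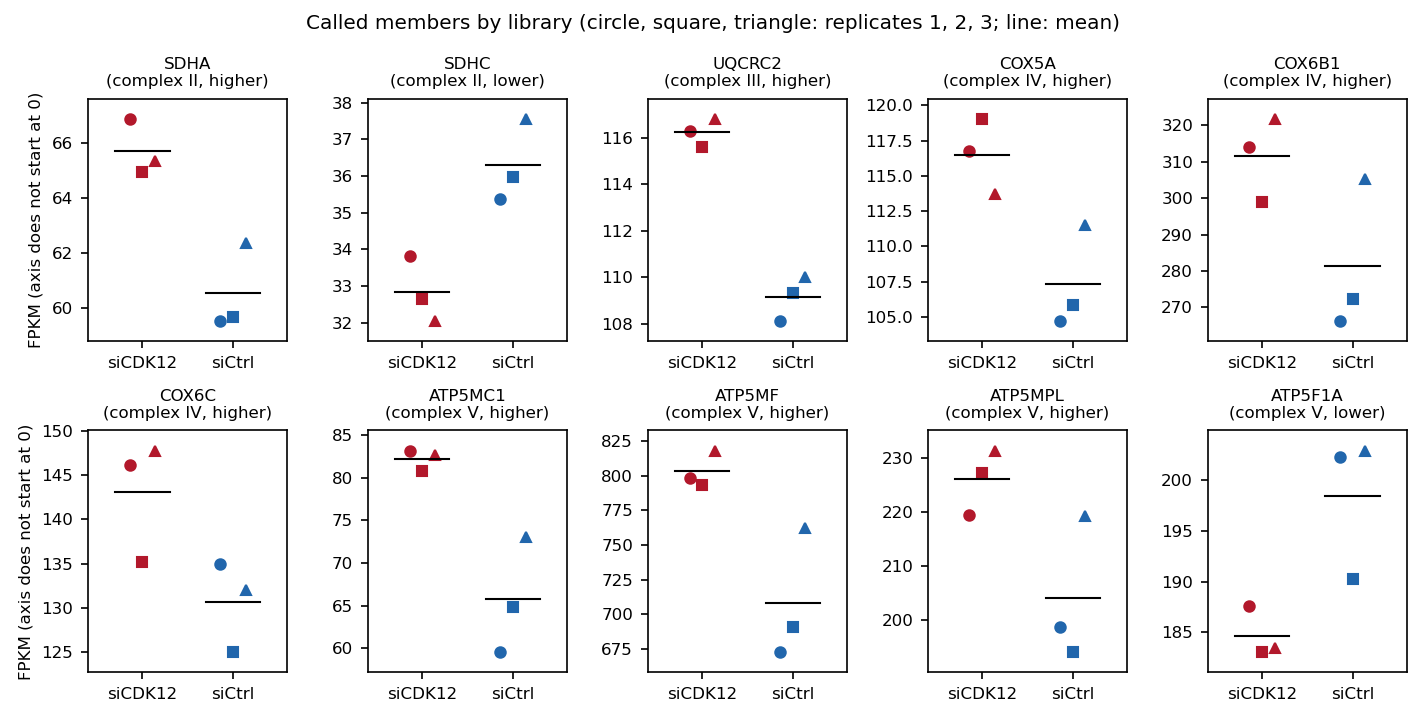
FPKM of the 10 called members by library, siCDK12 left of siCtrl, with group means as lines and an axis for each gene that does not start at 0. The groups separate in every panel other than COX6B1, and siCtrl replicate 3 (triangle) is often the control library nearest to the siCDK12 libraries.

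The most abundant RNAs of complex IV overlapped between groups. COX6A1, a regulatory subunit, had 726.53, 674.33 and 718.57 FPKM in siCDK12 libraries, against 687.51, 701.66 and 788.87 FPKM in siCtrl libraries (log2 fold change -0.04, adjusted p = 0.629). COX4I1, the subunit that binds ATP, had 480.72, 461.44 and 496.14 FPKM in siCDK12 libraries, against 479.44, 474.49 and 492.07 FPKM in siCtrl libraries (log2 fold change -0.01, 95% interval -0.09 to 0.07, adjusted p = 0.891). COX7A2L, which joins complexes III and IV into supercomplexes, had 89.19, 82.09 and 84.34 FPKM in siCDK12 libraries, against 87.86, 83.79 and 87.15 FPKM in siCtrl libraries (log2 fold change -0.02, adjusted p = 0.763). These 3 genes thus showed no difference beyond their replicate spread. COX5B, COX8A, COX7C, COX7A2 and COX7B, the remaining subunits of the oxidase, were not called at 0.04, 0.04, -0.02, 0.06 and 0.06.

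Isoforms of complex IV that are typical of other tissues were at or near 0. The muscle and heart forms COX6A2 and COX7A1 were listed at 0, except for 0.09 FPKM of COX7A1 in siCDK12 replicate 1. COX4I2, the form induced in lung and by low oxygen, and COX8C, a testis form, were listed at 0 in every library. COX6B2, another testis form, had 0.39, 0.43 and 0.25 FPKM in siCDK12 libraries, against 0.65, 0.45 and 0.33 FPKM in siCtrl libraries, and COX7B2 had at most 0.37 FPKM in any library. The ubiquitous paralogs COX6A1, COX4I1, COX8A, COX6B1 and COX7B carried nearly all of the RNA of each pair, in both groups.

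The members are short genes. Their median genomic span was 8294 bp, against 29791 bp for all genes tested, and 40 of 47 (85.1%) spanned less than 20 kb, against 38.0% of all genes. They had a median of 4 exons, against 9. Among the 2175 tested genes that span less than 20 kb and average at least 20 FPKM, 29.6% were called, 351 higher and 292 lower, with a median log2 fold change of 0.02. The members thus had a lower share of calls than short, abundant genes in general, a description that was not tested.

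Among genes that build the complexes, the called factors UQCC1, ATPAF1, FMC1 and TMEM242 had log2 fold changes larger in size than any member. Of 41 assembly factors of complexes III to V, all tested, 8 were higher and 7 lower (36.6% called, against 28.3% of all genes tested, 16.1% higher and 12.3% lower), with a median of 0.05. UQCC1, needed to assemble cytochrome b into complex III, had 8.86, 9.44 and 8.75 FPKM in siCDK12 libraries, against 17.56, 16.71 and 17.58 FPKM in siCtrl libraries (log2 fold change -0.93, SE 0.05, adjusted p = 1.44e-06). ATPAF1, a chaperone of the beta subunit during assembly of the catalytic head, had 17.34, 17.39 and 17.85 FPKM in siCDK12 libraries, against 27.79, 26.6 and 29.02 FPKM in siCtrl libraries (log2 fold change -0.66, SE 0.0441, adjusted p = 4.82e-06). Both fell well beyond the replicate spread, and their genes span 109396 bp at chr20:35302578-35411973 for UQCC1 and 35821 bp for ATPAF1. COA4, a factor of complex IV assembly, had 81.83, 84.86 and 83.15 FPKM in siCDK12 libraries, against 97.78, 102.2 and 110.57 FPKM in siCtrl libraries (log2 fold change -0.31, SE 0.0447, adjusted p = 0.000579). COA6, which takes part in copper delivery to complex IV, had 30.31, 33.12 and 31.11 FPKM in siCDK12 libraries, against 27.15, 25.88 and 26.96 FPKM in siCtrl libraries (log2 fold change 0.24, SE 0.0442, adjusted p = 0.00259). COA4 and COA6 span 4180 and 11625 bp, and PPARGC1A, a regulator that was called higher, spans 680885 bp. A link between span and change was not tested. UQCC1, ATPAF1, COA4 and COA6 were each called under all 16 alternatives. FMC1 averaged 4.08 FPKM in siCDK12 libraries, against 2.80 FPKM in siCtrl libraries (log2 fold change 0.54, adjusted p = 0.0387). TMEM242 averaged 1.11 FPKM in siCDK12 libraries, against 1.46 FPKM in siCtrl libraries (log2 fold change -0.37, adjusted p = 0.0479). These calls held under 8 alternatives for FMC1 and 7 for TMEM242.

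Of 13 tested nuclear regulators of respiratory genes, 4 were higher and 1 lower (38.5% called, against the same 28.3% of all genes tested), with a median of 0.02. PPARGC1A, the coactivator that drives mitochondrial biogenesis, was low, at 1.5, 1.58 and 1.44 FPKM in siCDK12 libraries, against 0.76, 0.8 and 0.92 FPKM in siCtrl libraries (log2 fold change 0.80, SE 0.133, adjusted p = 0.00148). Its siCtrl mean was 0.83 FPKM, so it reached the mean of 1 FPKM needed for testing only through the siCDK12 libraries. Its place among the 4 higher regulators rests on that. ESRRA, a nuclear receptor that works with PPARGC1A, had 31.3, 30.0 and 31.16 FPKM in siCDK12 libraries, against 27.07, 26.89 and 27.49 FPKM in siCtrl libraries (log2 fold change 0.18, SE 0.0378, adjusted p = 0.00512). Neither gene overlapped between groups. TFAM, which packages mitochondrial DNA and helps to start its transcription, had 11.19, 11.34 and 11.37 FPKM in siCDK12 libraries, against 10.37, 9.22 and 9.56 FPKM in siCtrl libraries (log2 fold change 0.22, SE 0.0548, adjusted p = 0.0138). Its call was lost without siCtrl replicate 2 (adjusted p = 0.0531, the highest over all alternatives). GABPB2, a partner subunit of the ETS factor GABPA, had 3.42, 3.69 and 4.15 FPKM in siCDK12 libraries, against 4.86, 5.3 and 4.8 FPKM in siCtrl libraries (log2 fold change -0.40, SE 0.0838, adjusted p = 0.00512). GABPB1, another partner subunit, was more abundant and went the other way. It averaged 63.81 FPKM in siCDK12 libraries, against 57.82 FPKM in siCtrl libraries (log2 fold change 0.14, SE 0.0381, adjusted p = 0.0183). NRF1, GABPA and YY1, factors that bind promoters of many respiratory genes, were not called at -0.08, -0.06 and -0.03.

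**Figure D5:**
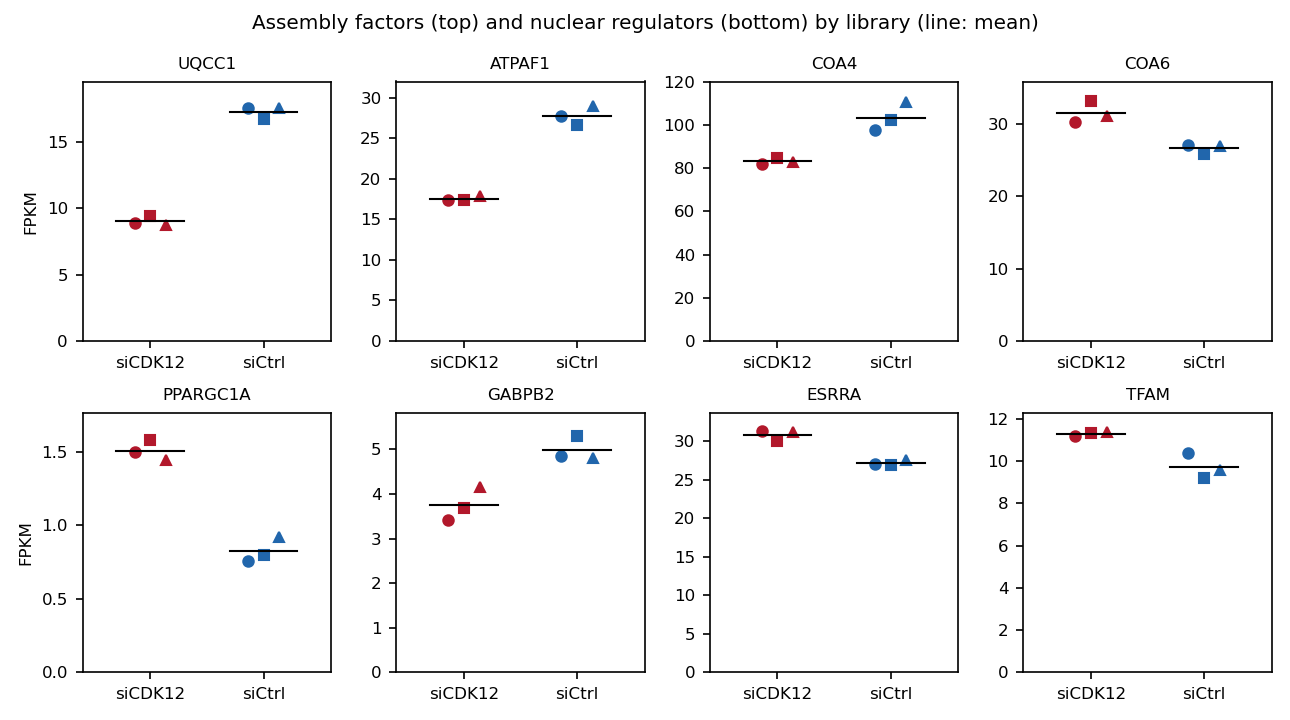
FPKM by library, siCDK12 left of siCtrl, of the 4 assembly factors with the smallest p (top) and of 4 regulators (bottom), with group means as lines. UQCC1 and ATPAF1 lie below their siCtrl libraries by a wide gap, and ESRRA above by a narrow one.

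The promoter of ATP5MC1 is shown because this gene had the largest change of the members. It gives the 250 bases before the RefSeq start on GRCh38.p14, chr17:48892537-48892786 on the plus strand, with a cAMP response element (TGACGTCA) and 4 CCAAT boxes in capitals.
ATP5MC1 promoter: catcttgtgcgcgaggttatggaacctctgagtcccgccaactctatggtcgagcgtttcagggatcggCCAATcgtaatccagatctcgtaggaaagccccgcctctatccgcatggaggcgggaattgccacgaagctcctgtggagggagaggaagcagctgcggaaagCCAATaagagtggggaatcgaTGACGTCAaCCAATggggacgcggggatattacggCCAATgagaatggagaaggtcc
Motifs were counted on both strands in windows of 300 bases around RefSeq starts, 44 windows of 38 members with an entry and 13889 windows of 9527 tested genes. No motif searched overlaps another in its letters. TGACGTCA was found in 6.82% of member windows, those of ATP5MC1, ATP5ME and SDHB, against 2.86% of all windows, and CCAAT in 38.6% against 35.1%. The NRF1 motif, GCGCA and GCGC with any base between, was found in 25.0% of member windows against 10.3% of all windows, and the ETS motif CCGGAAG in 40.9% against 17.7%. Of the 11 members with the NRF1 motif 2 were higher, SDHA and ATP5MPL, and 0 were lower by limma. Of the 17 members with the ETS motif 1 was higher, COX6B1, and 1 was lower, ATP5F1A. For both motifs the background was 16.1% of all genes tested called higher and 12.3% lower. These matches describe letters in a window and are not evidence of binding.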

How the data were processed

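RNA was measured in 6 libraries of LY2 cells, 3 transfected with siCDK12 and 3 with siCtrl. The authors sequenced paired ends on BGISEQ-500, filtered reads with SOAPnuke, aligned them to GRCh38 with Bowtie2, quantified with RSEM and tested with DESeq2, and deposited a table of FPKM per gene, which was used here with 0 columns left out. Because the values were FPKM and not counts, limma 3.58.1 (R 4.3.3, with variance trend) was fitted on log2(FPKM + 0.1) to the 11533 genes whose mean over the libraries reached 1 FPKM, with no further scaling, and p was adjusted by Benjamini-Hochberg. The method was tested on simulated data. The study states a nominal read yield for each library. The depth that each library reached could not be taken from the table, since fractional RSEM estimates rounded to 2 decimals kept no steps from which whole reads could be recovered, so no counting interval is given; intervals cover the spread between libraries. Replicates may share conditions other than those named, and p-values measure the spread between these libraries.

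The members and gene lists were chosen with earlier results of these data known. Values per library were to be given for called members, the most abundant member of each complex, core subunits and paralogs, and for up to 4 called genes with the smallest p from the lists of assembly factors and regulators. The 57 members all matched RefSeq GRCh38.p14 by symbol, synonym or identifier, and sequences are credited to RefSeq (promoters) and GENCODE (coding stretches). Alternatives were another pseudocount (1 or 0.01), a minimum mean of 5 FPKM or none, equal FPKM sums, median-ratio scaling, quantile normalization, no variance trend, robust variance, a replicate block, and leaving out each library.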

Additional observations from a re-analysis of the deposited data

How the results depend on the processing

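No called member changed sign under any of the 16 alternatives, whereas 16 of the 37 members that were not called did in at least 1. The median over members lay between 0.01 and 0.08 on the log2 scale. The count of higher members (8 with all settings as described) was 3 without a filter (SDHA, UQCRC2 and ATP5MC1, where 8.54% of all genes were higher), 2 with median-ratio scaling (11.9%), 1 without a variance trend (ATP5MC1, 13.2%) and 1 to 12 on leaving out a library. The count of lower members (2) was 1 without a filter (where 7.34% of all genes were lower), 1 with quantile normalization (13.8%) and 1 with robust variance (12.3%). It was 0 without a variance trend (10.4%) and 0 to 2 on leaving out a library (9.19% to 10.4%). By limma, 2 members were lower at an unadjusted p under 0.05 in each alternative that called 0. With the replicate number as a block, 5 members were higher and 0 lower, where 13.4% of all genes were higher and 10.5% lower (13 and 2 members at an unadjusted p under 0.05). Over all genes tested, same-numbered libraries did not deviate together (correlations of deviations from the group means between -0.03 and 0.02). Among the members, replicate 3 had the highest median deviation in both groups, 0.05 in siCDK12 and 0.04 in siCtrl. These values cannot show whether the numbers pair the libraries. The cause of these differences was not tested. With 3 libraries a group, small changes near the threshold were limited by the spread between libraries, and the depth of each library was not known.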
